A study of Mus musculus with 6 samples.

Results

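The 8 constant genes of the immunoglobulin heavy chain (IgH) locus were taken by name from a table of 46963 gene names, and their RNA in splenic B-cells was compared between rest and stimulation with LPS (lipopolysaccharide, a cell wall molecule of Gram-negative bacteria that makes B-cells divide and secrete antibody). They are Ighm and Ighd, the 4 γ genes Ighg3, Ighg1, Ighg2b and Ighg2c, and further downstream Ighe and Igha. All 8 names were found, and 7 of them passed a filter of at least 10 counts in at least 2 libraries, as did 14600 genes in all. Ighe was the member that did not pass. There were 6 libraries, 1 each of resting and of LPS-stimulated cells from wt mice, from Eμ-deficient mice and from 3′RR-deficient mice. The mice were of the 129 background, male and female, and 8 to 12 weeks old. Eμ-deficient mice, which the methods name EμMAR-deficient, lack the enhancer between the JH genes and Ighm. The 3′RR-deficient mice lack the enhancer cluster downstream of Igha. All the libraries came from splenocytes depleted of cells with CD43, which leaves mostly resting mature B-cells, and each pooled 2 mice per the labels. LPS was given at 5 μg per ml for 48 h. The labels give 5 mg per ml in 1 protocol text, and they call the resting cells cultured for 2 days where the methods take them before stimulation. A difference between rest and LPS can therefore hold an effect of culture itself, and the 2 cannot be told apart if the resting cells were not cultured.

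The constant genes encode the part of the antibody heavy chain that sets its class. A naive B-cell splices its rearranged V(D)J exon to Ighm or, through a longer primary transcript, to Ighd, which gives IgM and IgD on the same cell. During class switch recombination (CSR) the V(D)J exon is joined to a constant gene further downstream. This is preceded by germline transcription, in which RNA starts at an I promoter in front of that gene and runs through its switch region and exons without coding for an antibody. LPS alone is known to favour switching to IgG3 and IgG2b in mouse B-cells. Counts over the exons of a constant gene hold germline transcripts, transcripts of switched cells, and membrane and secreted forms together, and these cannot be told apart here. In a bulk library, fewer cells of a type and less RNA per cell cannot be told apart either.

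In mm10 (GRCm38) the locus is read from the minus strand of chromosome 12, with the genes in the order given above. Ighm ran from 113418558 to 113422730, and Igha, the last gene, from 113254830 to 113260236. Counted from the 5′ end of Ighm, Ighd started 6.41 kb downstream, Ighg3 61.5 kb, Ighg1 92.2 kb, Ighg2b 115 kb, Ighg2c 134 kb, Ighe 149 kb and Igha 162 kb downstream. Each gene had 2 annotated transcripts, and the union of their exons held between 1326 bases in Ighg2c and 2678 bases in Ighg2b.

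The γ genes include the members whose LPS response differed most between genotypes, Ighg1 and Ighg2c, and they are also the members that resemble each other most. The first 120 bases of their CH1 exons, which encode the first domain of the constant region, are given 5′ to 3′ on the minus strand from the GENCODE M21 transcripts. Capitals mark the 39 positions at which the 4 genes do not all have the same base.
Ighg3, chr12:113361113-113361232: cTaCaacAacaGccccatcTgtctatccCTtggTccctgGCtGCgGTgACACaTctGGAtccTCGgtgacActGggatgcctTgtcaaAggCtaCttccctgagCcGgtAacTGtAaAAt
Ighg1, chr12:113330404-113330523: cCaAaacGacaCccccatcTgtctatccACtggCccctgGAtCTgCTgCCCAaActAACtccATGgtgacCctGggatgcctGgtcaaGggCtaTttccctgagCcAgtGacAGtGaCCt
Ighg2b, chr12:113307814-113307933: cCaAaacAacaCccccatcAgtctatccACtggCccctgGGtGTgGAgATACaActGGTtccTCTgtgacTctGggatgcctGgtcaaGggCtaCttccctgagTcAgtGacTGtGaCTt
Ighg2c, chr12:113288813-113288932: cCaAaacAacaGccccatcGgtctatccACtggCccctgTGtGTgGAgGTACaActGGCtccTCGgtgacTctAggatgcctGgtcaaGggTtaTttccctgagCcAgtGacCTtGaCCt
Over the whole CH1 exon of 291 bases, the genes differed at 88 positions. Ighg3 shared between 78.4% and 79.0% of these bases with the other γ genes, which shared between 87.6% and 88.3% among themselves. No stretch of 150 bases, the read length, occurred in more than 1 member, and stretches of 50 bases that did made up between 0.39% of those of Ighg1 and 5.49% of those of Ighg2c. The 129 strain carries another IgH haplotype than the reference genome, which has Ighg2c, so that reads of its own allele may be missed in the Ighg2c values.

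The hinge exons, which encode the flexible stretch in which the heavy chains are joined by disulfide bonds, show how far the 4 γ genes have diverged. Capitals mark the cysteine codons in the reading frame that follows from CH1, whose last base begins a codon that the hinge exon completes.
Ighg3, chr12:113360529-113360576: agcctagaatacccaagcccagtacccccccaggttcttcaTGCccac
Ighg1, chr12:113329844-113329882: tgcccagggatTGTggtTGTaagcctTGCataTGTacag
Ighg2b, chr12:113307261-113307326: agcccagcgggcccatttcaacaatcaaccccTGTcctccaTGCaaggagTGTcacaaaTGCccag
Ighg2c, chr12:113288263-113288325: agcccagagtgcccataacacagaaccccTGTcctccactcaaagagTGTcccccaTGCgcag
The hinge exons held 48, 39, 66 and 63 bases with 1, 4, 4 and 3 cysteine codons in Ighg3, Ighg1, Ighg2b and Ighg2c, respectively.

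Library depth over the genes was between 9111974 and 21998587 counts. Values are CPM, in which edgeR's TMM method scales the counts to 1 common library size, and a ratio of LPS to resting libraries is given on the log2 scale with its exact conditional binomial (Clopper-Pearson) 95% interval. There is 1 library per genotype and state, so that these intervals cover counting error only and no test within a genotype was possible. A gene was called higher or lower if the libraries differed at least 2-fold and the interval excluded 0. The spread of the spike-in RNAs was larger than counting error. Among the 35 spike-in RNAs that had 100 counts or more throughout, the log2 ratio of LPS to rest ran from -0.47 to 2.50 in wt, from -0.41 to 0.13 in Eμ-deficient and from -1.37 to 1.16 in 3′RR-deficient mice. The SD of these ratios was 0.784, 0.135 and 0.634, respectively, where counting alone would give 0.0646, 0.0693 and 0.0733. Their median was 0.22, -0.17 and 0.15, while spike-in scaling used the counts summed over all 92 spike-in RNAs. The source of this spread was not tested, and the range is no measure of the error of a gene. In addition, a common LPS effect was tested for the 14600 genes in edgeR's quasi-likelihood framework, with additive terms for genotype and state and Benjamini-Hochberg adjustment. With 2 residual degrees of freedom, the error of this model is how far the genotypes depart from that common effect and not how far mice differ.

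In wt B-cells LPS went with less RNA of Igha, Ighg2c, Ighd and Ighg1, while Ighm, Ighg3 and Ighg2b differed by less than 2-fold. In Eμ-deficient B-cells Igha and Ighd were also lower, but Ighg3, Ighg1 and Ighg2b were higher. In 3′RR-deficient B-cells Ighd and Igha were lower, and the γ genes and Ighe had no more than 4 counts in either library. Of the 8 members, 0 were called higher and 4 lower in wt, against 20.7% and 24.3% of all genes tested. In Eμ-deficient mice 3 were called higher and 3 lower, the latter including Ighe, against 16.1% and 18.1%. In 3′RR-deficient mice 0 were called higher and 2 lower, against 17.1% and 19.0%. The γ genes and Ighe were too scarce there for a call to be likely, so that these counts rest on Ighm, Ighd and Igha. The additive edgeR model called 0 of the 7 members tested higher and 3 lower, against 19.7% and 21.1% of all genes. At an unadjusted p under 0.05 it had 2 higher, and DESeq2 called 3 higher and 2 lower.

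**Figure D1:**
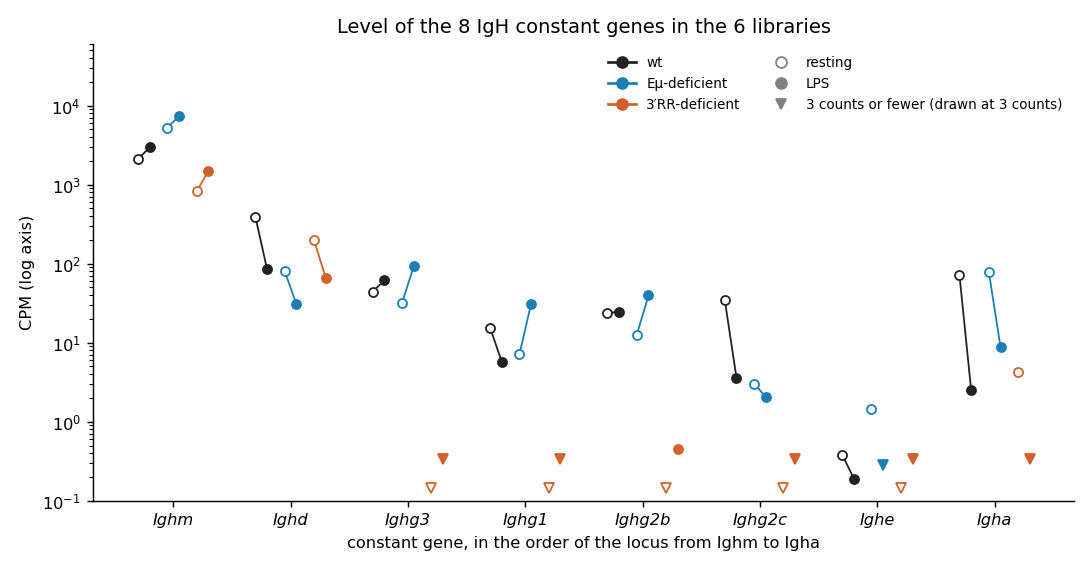
CPM of each constant gene on a log axis, in the order of the locus, with open points for resting and filled points for LPS libraries joined by a line within a genotype. Triangles stand for libraries with 3 counts or fewer and are drawn at the CPM of 3 counts; the γ genes of 3′RR-deficient mice lie there except for Ighg2b after LPS, which had 4 counts.

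Ighm, which encodes the μ chain of IgM, was the most abundant member in every library, also per kb of exon. It had 2086 CPM at rest and 2977 CPM after LPS in wt, 5217 and 7370 CPM in Eμ-deficient, and 819 and 1485 CPM in 3′RR-deficient B-cells. The LPS library was the higher one in each genotype. The log2 ratio was 0.51 (95% interval 0.49 to 0.53) in wt, 0.50 (0.48 to 0.51) in Eμ-deficient and 0.86 (0.83 to 0.89) in 3′RR-deficient mice, so that none reached 2-fold. The wt ratio turned to -0.28 when the libraries were scaled by their summed spike-in counts, although the median spike-in ratio in wt was 0.22. The ratios of wt and 3′RR-deficient mice lay within the range of the single spike-ins. The wt and Eμ-deficient ratios differed by -0.01 (-0.04 to 0.01), although the Ighm level itself was higher in both Eμ-deficient libraries. In the edgeR model with Benjamini-Hochberg adjustment Ighm was not called (log2 fold change 0.62, standard error 0.29, adjusted p = 0.113). Of 12 alternative fits, the DESeq2 Wald test gave the lowest adjusted p, 0.0339, and the fit without the genotype term the highest, 0.6.

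Ighd, which encodes the δ chain of IgD and shares its primary transcript with Ighm, was lower after LPS in all the genotypes. It had 7135 counts at rest and 1767 after LPS in wt, 1059 and 327 in Eμ-deficient, and 4070 and 585 in 3′RR-deficient libraries. In CPM these were 392 and 84.5, 80.1 and 30.6, and 198 and 65.7. The resting wt and resting 3′RR-deficient libraries were the highest, and the resting Eμ-deficient library was no higher than wt after LPS. The level was 4.65-fold lower with LPS in wt (log2 ratio -2.22, 95% interval -2.29 to -2.14), 2.62-fold lower in Eμ-deficient (-1.39, -1.57 to -1.21) and 3.01-fold lower in 3′RR-deficient mice (-1.59, -1.72 to -1.46). These ratios lay below the lowest spike-in RNA of their genotype. In the edgeR model with Benjamini-Hochberg adjustment Ighd fell by 1.73 on the log2 scale (standard error 0.27, adjusted p = 0.00123), and it was called in 12 of 12 alternative fits, with adjusted p from 5.68e-09 to 0.0399.

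The proportion of Ighd to Ighm within a library does not depend on how libraries are scaled. Per kb of exon, Ighd stood at 0.187 of Ighm in resting wt B-cells and at 0.0282 after LPS, which is 6.63-fold lower (log2 change -2.73, counting 95% interval -2.81 to -2.65). In Eμ-deficient B-cells it went from 0.0152 to 0.00413, 3.70-fold lower (-1.89, -2.07 to -1.71). In 3′RR-deficient B-cells it went from 0.240 to 0.0439, 5.46-fold lower (-2.45, -2.58 to -2.32). The intervals of the 3 genotypes did not overlap, but they hold counting error alone, and the difference between genotypes was not tested. The resting Eμ-deficient library already had a smaller Ighd proportion than the LPS-stimulated libraries of the other genotypes.
Zfp318, a nuclear protein known to be needed for reading through from Ighm to Ighd, had 152 CPM at rest and 27.9 CPM after LPS in wt, 52.0 and 19.8 CPM in Eμ-deficient, and 129 and 30.9 CPM in 3′RR-deficient libraries. It was lowest at rest in the Eμ-deficient library, as was Ighd relative to Ighm. The paper cites an earlier report that follicular B-cells are lacking in this Eμ-deficient model. In the edgeR model with Benjamini-Hochberg adjustment Zfp318 fell by 1.98 on the log2 scale (standard error 0.27, adjusted p = 0.000681). Genes of follicular B-cells, which carry much IgD, were lower as well, and so were 4 of 5 markers of marginal zone B-cells. The median log2 fold change was -2.39 for the follicular and -2.25 for the marginal zone list. Of the 2 follicular markers, Fcer2a and Klf2, 2 fell in the model. Their summed level went from 425 to 83.0 CPM in wt, from 234 to 47.8 CPM in Eμ-deficient and from 658 to 111 CPM in 3′RR-deficient libraries. Klf2 gave 306 CPM of the sum in resting wt cells. The part of Zfp318 or of the cell make-up in the Ighd values was not tested.

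**Figure D2:**
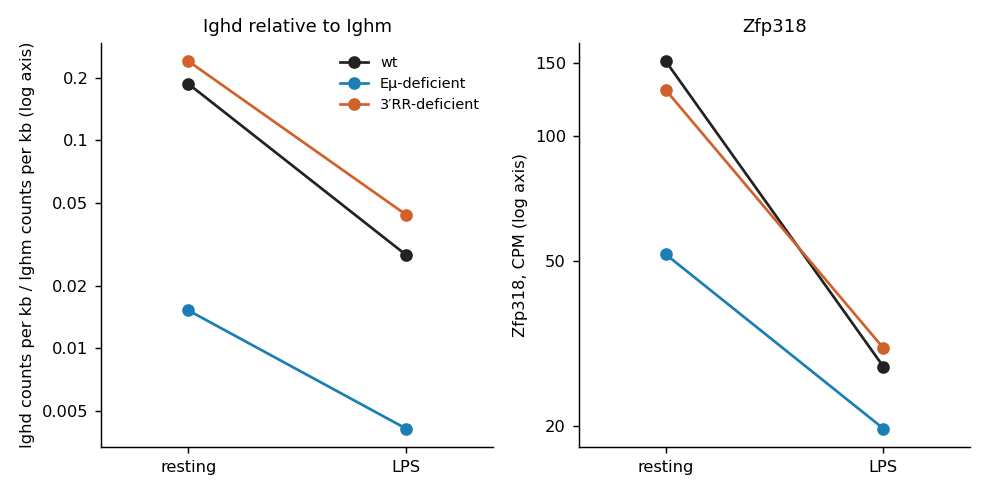
Left, the ratio of Ighd to Ighm counts per kb of exon in each library, and right, the CPM of Zfp318, both on log axes with 1 line per genotype from the resting to the LPS library. Both values were lower after LPS in each genotype, and the Eμ-deficient line lies lowest in both panels.

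Among the γ genes, Ighg3 was the most abundant one per kb of exon after LPS in wt and Eμ-deficient B-cells. This gene, which encodes the heavy chain of IgG3, had 807 counts (44.4 CPM) at rest and 1285 counts (61.4 CPM) after LPS in wt, and 425 counts (32.2 CPM) and 985 counts (92.3 CPM) in Eμ-deficient libraries. The 3′RR-deficient libraries had 2 counts and 0 counts, and the 0 counts allow up to 0.337 CPM. The Eμ-deficient libraries thus held both the lower and the higher of the 4 wt and Eμ-deficient values. The log2 ratio of LPS to rest was 0.47 (95% interval 0.34 to 0.60) in wt, which turned to -0.33 with spike-in scaling, and 1.52 (1.355 to 1.69) in Eμ-deficient B-cells, 2.87-fold higher. Relative to Ighm per kb, Ighg3 went from 0.0160 to 0.0155 in wt (log2 change -0.04, -0.17 to 0.08) and from 0.00463 to 0.00940 in Eμ-deficient B-cells (1.02, 0.86 to 1.19). Its wt ratio and that of Ighm were therefore alike within counting error, and its Eμ-deficient ratio was not.

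Ighg2b, which encodes the heavy chain of IgG2b, had 432 counts (23.8 CPM) at rest and 514 counts (24.6 CPM) after LPS in wt, and 165 counts (12.5 CPM) and 423 counts (39.6 CPM) in Eμ-deficient libraries. The log2 ratio was 0.05 (-0.14 to 0.24) in wt, with an interval that includes 0, and it was -0.20 with scaling by the total count and -0.75 with spike-in scaling. In Eμ-deficient B-cells it was 1.67 (1.403 to 1.93), 3.17-fold higher. In 3′RR-deficient B-cells there was 1 count at rest and there were 4 counts after LPS, a log2 ratio of 3.21 with an interval from -0.13 to 8.83, so that a difference was not detectable at this depth. Per kb, Ighg2b stood at 0.502 of Ighg3 at rest and 0.375 after LPS in wt (log2 change -0.42, -0.64 to -0.20), and at 0.364 and 0.403 in Eμ-deficient libraries (0.15, -0.16 to 0.45). The proportion of these genes, both known for LPS-driven switching, was thus 1.34-fold lower after LPS in wt and 1.11-fold higher in Eμ-deficient B-cells, where the interval includes 0.

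Ighg1, which encodes the heavy chain of IgG1 and whose germline transcription is known to need IL-4 rather than LPS alone, moved in opposite directions. It had 281 counts (15.5 CPM) at rest and 120 counts (5.74 CPM) after LPS in wt, against 94 counts (7.11 CPM) and 332 counts (31.1 CPM) in Eμ-deficient libraries. The lowest of these values was wt after LPS and the highest Eμ-deficient after LPS. The log2 ratio was -1.43 (95% interval -1.75 to -1.12) in wt, 2.69-fold lower, and 2.13 (1.79 to 2.47) in Eμ-deficient B-cells, 4.37-fold higher. Of all genes tested, 17.7% had a ratio as low in wt and 3.86% one as high in Eμ-deficient B-cells. Against Ighg3 per kb, Ighg1 went from 0.337 to 0.0905 in wt (log2 change -1.90, -2.23 to -1.57) and from 0.214 to 0.327 in Eμ-deficient B-cells (0.61, 0.24 to 0.98). With 0 counts at rest and 1 count after LPS, the 3′RR-deficient libraries gave no fold.

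Ighg2c was the γ gene with the largest difference in wt. It had 632 counts (34.8 CPM) in the resting wt library, 75 counts after LPS, 40 and 22 counts in the Eμ-deficient libraries, and 0 counts in both 3′RR-deficient libraries. Only the resting wt library was high, and the log2 ratio of LPS to rest was -3.28 (-3.64 to -2.93) in wt, 9.70-fold lower, and -0.55 (-1.38 to 0.23) in Eμ-deficient B-cells. Per kb Ighg2c stood above Ighg2b in resting wt B-cells, at 2.95 of it, and at 0.295 after LPS.

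In the edgeR model with Benjamini-Hochberg adjustment, Ighg2c fell by 2.10 on the log2 scale (standard error 0.65, adjusted p = 0.0331). This call rests on the wt libraries, without which the log2 fold change was -0.55, and it was lost with the DESeq2 Wald test and without the genotype term too. The same model called none of Ighg3 (log2 fold change 0.92, standard error 0.36, adjusted p = 0.067), Ighg2b (0.98, 0.42, 0.0917) and Ighg1 (0.43, 0.77, 0.681). They were called in fits without the wt libraries, with log2 fold changes of 1.43 for Ighg3, 1.76 for Ighg2b and 2.16 for Ighg1. Since the 3′RR-deficient libraries had no more than 4 counts of each, these calls rest on the Eμ-deficient pair of libraries alone. Their p-values therefore measure no spread. Without the Eμ-deficient libraries, Ighg1 had a log2 fold change of -1.16 and Ighg3 one of 0.32, which rest on the wt pair in the same way. Without the count filter the adjusted p was 0.0243 for Ighg3 and 0.0201 for Ighg2b. Each call of a higher γ gene thus depends on which genotypes are in the fit, on the count filter or on the tool. The differences of the log2 ratio between Eμ-deficient and wt mice were 1.05 for Ighg3, 3.56 for Ighg1, 1.62 for Ighg2b and 2.72 for Ighg2c. With 1 library per genotype and state there is no error term for them, so that they were not tested.

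**Figure D3:**
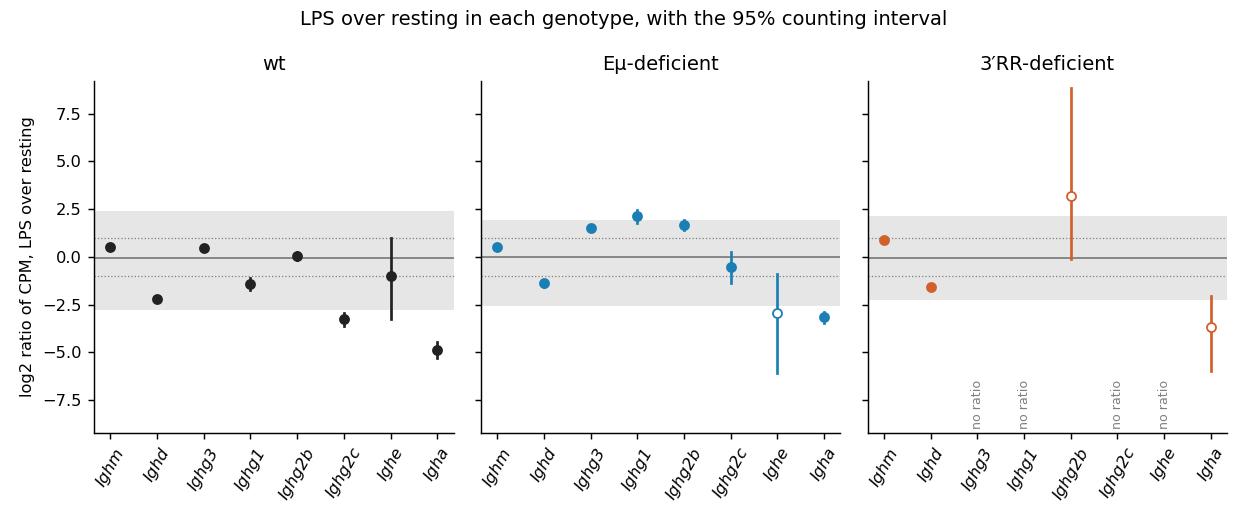
Log2 ratio of CPM, LPS over resting, for the 8 genes in each genotype, with bars for the 95% counting interval and open points where a library had 1 to 3 counts. The grey band spans the 5th to the 95th percentile of all genes tested, the grey line is their median and dotted lines mark 2-fold; Igha lies below the band in each panel, and genes with 3 counts or fewer in both libraries have no ratio.

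Igha, the gene nearest to the 3′RR and the one for the heavy chain of IgA, had the lowest ratio of LPS to rest of any member in wt and, of those with a ratio, in 3′RR-deficient B-cells. In wt it had 1304 counts (71.7 CPM) at rest and 52 counts (2.49 CPM) after LPS, followed by 1044 counts (79.0 CPM) and 94 counts (8.80 CPM) in Eμ-deficient, and 88 counts (4.28 CPM) and 3 counts in 3′RR-deficient libraries. The resting library was the higher one in each genotype, and every LPS library of wt and Eμ-deficient mice lay below their resting libraries. The level was 28.9-fold lower in wt (log2 ratio -4.85, 95% interval -5.28 to -4.45) and 8.97-fold lower in Eμ-deficient mice (-3.17, -3.49 to -2.86). In 3′RR-deficient mice the log2 ratio was -3.67 with an interval from -5.97 to -2.07. A ratio as low was found in 0.911% of all genes tested in wt, 3.12% in Eμ-deficient and 1.13% in 3′RR-deficient mice. In the edgeR model with Benjamini-Hochberg adjustment Igha fell by 3.94 on the log2 scale (standard error 0.39, adjusted p = 0.00017), and 12 of 12 alternative fits called it, with adjusted p from 3.86e-28 to 0.0429.

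Ighe, which encodes the heavy chain of IgE, was near the limit of detection. It had 7 and 4 counts in wt, 19 and 2 counts in Eμ-deficient, and 0 counts in both 3′RR-deficient libraries. In wt the log2 ratio was -1.01 with an interval from -3.23 to 0.97. In Eμ-deficient mice it was -2.94, from -6.09 to -0.89, which met the rule for a lower call on 2 counts, although Ighe is not among the genes tested.

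The proportions of the 8 genes within a library are given per kb of exon. Ighm made up 79.1% of the sum at rest and 94.9% after LPS in wt, 96.7% and 97.9% in Eμ-deficient, and 80.4% and 95.8% in 3′RR-deficient libraries. Ighd made up 14.8% and 2.67%, 1.47% and 0.404%, and 19.3% and 4.21%. The 6 genes downstream of Ighd took the rest, 6.14% at rest and 2.38% after LPS in wt, 1.85% and 1.72% in Eμ-deficient, and 0.308% and 0.0410% in 3′RR-deficient libraries. The share of Ighm was thus higher after LPS in each genotype, and it differed least between the Eμ-deficient libraries. As shares of counts, the downstream genes had exact binomial 95% intervals of 6.91% to 7.37% and 2.97% to 3.24% in wt, 2.38% to 2.61% and 2.195% to 2.403% in Eμ-deficient, and 0.349% to 0.532% and 0.0250% to 0.114% in 3′RR-deficient libraries.

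Among the 6 downstream genes alone, the order changed from rest to LPS. In resting wt B-cells Igha (31.3%) and Ighg2c (30.5%) led, followed by Ighg3 (20.6%), Ighg2b (10.3%) and Ighg1 (6.95%). After LPS Ighg3 led with 61.8%, followed by Ighg2b (23.2%), Ighg2c (6.83%), Ighg1 (5.59%) and Igha (2.35%). The rank of Ighg2c in wt depends on its annotated exons, which are the shortest at 1326 bases. By counts not divided by length, Ighg3 (23.3%) stood above Ighg2c (18.3%) in resting wt B-cells. After LPS, Ighg1 (5.85%) stood above Ighg2c (3.66%) by counts. In resting Eμ-deficient B-cells Igha (55.9%) was followed by Ighg3 (24.2%), Ighg2b (8.80%), Ighg1 (5.18%) and Ighg2c (4.31%). After LPS the order there was Ighg3 (53.6%), Ighg2b (21.6%), Ighg1 (17.5%), Igha (4.82%) and Ighg2c (2.27%). Ighg3 and Ighg2b together thus held most of the downstream RNA after LPS in both genotypes, and Igha most of it, or with Ighg2c most of it, at rest. The share of Igha relative to Ighg3 per kb was 39.9-fold lower after LPS in wt (log2 change -5.32, -5.74 to -4.90) and 25.7-fold lower in Eμ-deficient libraries (-4.69, -5.03 to -4.34). In resting 3′RR-deficient B-cells 88 of the 91 downstream counts were those of Igha, and after LPS the 8 downstream counts were too few for proportions.

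**Figure D4:**
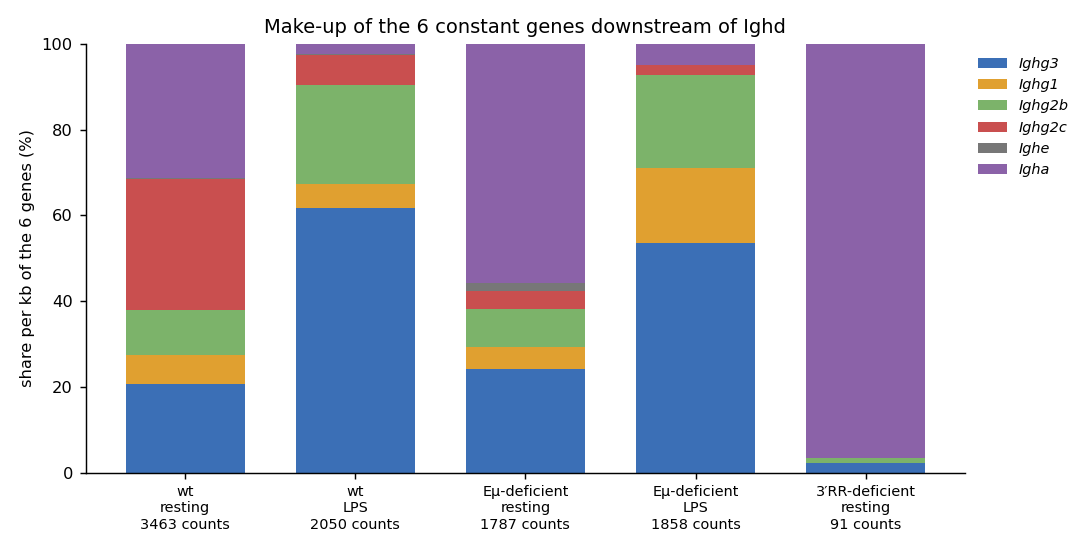
Share of each of the 6 genes downstream of Ighd in their sum of counts per kb of exon (%), as stacked bars from 0 for each library with its number of counts. Igha takes 31.3%, 55.9% and 96.6% of the resting wt, Eμ-deficient and 3′RR-deficient bars, and Ighg3 takes 61.8% and 53.6% of the wt and Eμ-deficient LPS bars; the LPS-stimulated 3′RR-deficient library is left out because it had 8 counts.

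Igha was lower after LPS in each genotype, whereas within genotypes Ighg2c was called lower in wt alone. RNA of other cells was lower after LPS as well. The depletion of cells with CD43 is known to remove T-cells, plasma cells and most myeloid cells. RNA of T-cell and myeloid markers was still counted in each resting library. The 6 erythroid markers fell in the additive model, 6 of 6, from a sum of 3354 to 52.9 CPM in wt, from 20137 to 670 CPM in Eμ-deficient and from 3863 to 133 CPM in 3′RR-deficient libraries. The myeloid markers fell, 5 of 5, from 134 to 14.0, from 315 to 25.0 and from 131 to 20.3 CPM, and the T-cell markers, 6 of 6, from 15.1 to 0.813, from 32.5 to 4.12 and from 19.1 to 1.46 CPM. Cd3e and Cd8a were at 0 in the LPS library of wt and Cd8a in that of 3′RR-deficient mice. The markers of marginal zone B-cells, Cr2, Cd1d1, Dtx1, S1pr3 and Cd9, fell in 4 of 5 cases, from a sum of 753 to 215, from 1113 to 226 and from 634 to 185 CPM. The exception was Cd9. Of the 6 B-cell markers 1, Cd22, fell in edgeR and 3 in DESeq2. Their sum was lower after LPS too, from 2695 to 1926 CPM in wt, from 1965 to 1688 CPM in Eμ-deficient and from 3036 to 2014 CPM in 3′RR-deficient libraries.
Plasma cells and plasmablasts, which hold very much RNA of the constant gene they express, have Jchain, Sdc1 and Tnfrsf17 among their markers. Jchain, whose product joins the chains of IgM and IgA, had 113 and 96.1 CPM in wt, 1734 and 803 CPM in Eμ-deficient, and 171 and 200 CPM in 3′RR-deficient libraries. Sdc1 was between 5.02 and 22.3 CPM and Tnfrsf17 between 0.048 and 2.50 CPM. Of the 6 plasma cell markers 2 rose, Prdm1 and Xbp1, and 0 fell in edgeR, at an unadjusted p under 0.05 or in DESeq2, with sums of 546 and 581, 2234 and 1589, and 591 and 891 CPM. The Eμ-deficient libraries were the highest in this list in both states. Whether other cells than naive B-cells gave the resting Igha and Ighg2c RNA was not tested.

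Of 8 partners of the heavy chain, the light chains and the proteins that assemble with the heavy chain or signal from it, 2 rose in the edgeR model with Benjamini-Hochberg adjustment and 0 fell, which for the rise is near the share of all genes (19.7% rose and 21.1% fell). At an unadjusted p under 0.05 and with DESeq2, 1 fell. Their median log2 fold change was 0.05, against -0.07 over all genes. Mzb1, a chaperone of the endoplasmic reticulum that helps to assemble IgM, rose by 2.14 (standard error 0.25, adjusted p = 0.000316), from 51.5 to 238 CPM in wt, from 91.9 to 402 CPM in Eμ-deficient and from 71.5 to 300.5 CPM in 3′RR-deficient libraries. Iglc1, a constant gene of the λ light chain, rose by 1.25 (standard error 0.32, adjusted p = 0.0136). Its log2 ratio was 1.61 in wt, 0.39 in Eμ-deficient and 1.73 in 3′RR-deficient B-cells. The other listed λ constant genes were not called, with log2 fold changes of 0.16 for Iglc2 (adjusted p = 0.684) and -0.06 for Iglc3 (adjusted p = 0.877). Igkc, the constant gene of the κ light chain, went from 809 to 905 CPM, from 2399 to 2982 CPM and from 983 to 2594 CPM and was not called (0.62, standard error 0.34, adjusted p = 0.167). Cd79a and Cd79b, which carry the signal of the B-cell receptor, had log2 fold changes of -0.71 and -0.29 and were not called.

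Of 17 regulators of heavy chain transcription, recombination and RNA processing, 9 rose and 3 fell in the same model, beside 19.7% and 21.1% of all genes, with a median log2 fold change of 0.81. Batf, a transcription factor needed for CSR, rose by 3.41 (standard error 0.24, adjusted p = 6.65e-05). Prdm1 and Xbp1, which drive the plasma cell programme, rose by 3.04 and 1.86.
Ell2, an elongation factor that promotes use of the secretory poly(A) site, rose by 1.73 (standard error 0.23, adjusted p = 0.000576), with log2 ratios of 1.89, 1.83 and 1.47 in the 3 genotypes. Its partners Eaf1 and Eaf2 rose by 0.81 and 1.53, and Cstf2, a subunit of the cleavage stimulation factor, by 0.96. Hnrnpll, an RNA-binding protein known to act beside Ell2 in the processing of heavy chain RNA, was not called (0.36, standard error 0.29, adjusted p = 0.338). The octamer factor Pou2f2 and its coactivator Pou2af1 rose by 0.95 and 1.04. Besides Zfp318, Ebf1 and Spi1, transcription factors of the B-cell and myeloid lineages, fell, with log2 fold changes of -1.17 and -0.82. Pax5, Irf4, Yy1 and Pou2f1 were not called. How much of Ighm was secreted or membrane form cannot be read from gene counts.

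**Figure D5:**
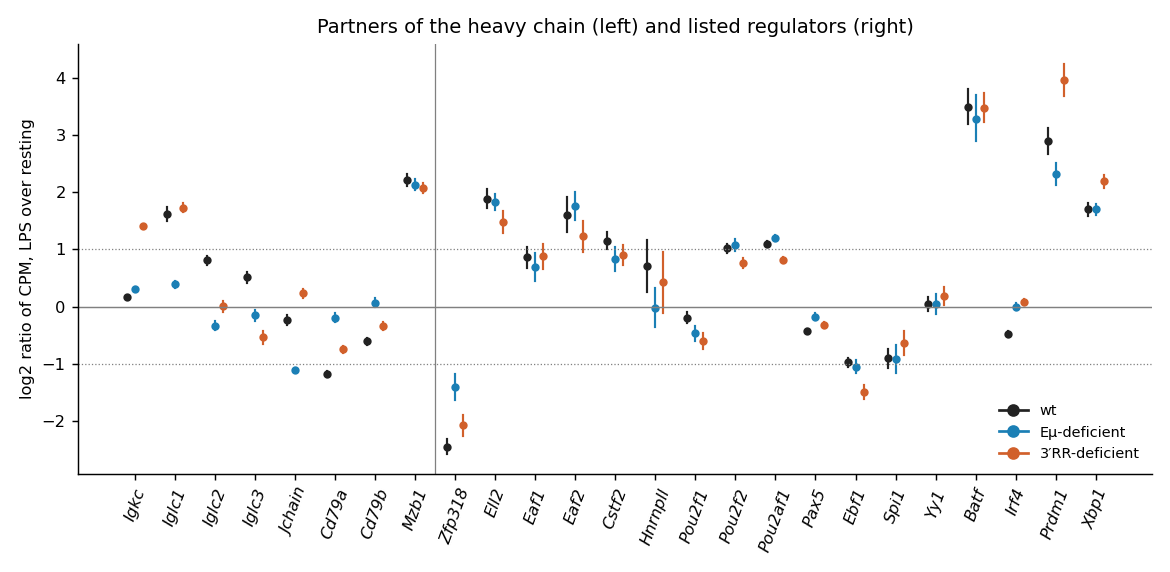
Log2 ratio of CPM, LPS over resting, for 8 partners of the heavy chain and 17 regulators, with 1 point per genotype and bars for the 95% counting interval; dotted lines mark 2-fold. Mzb1, Batf, Ell2, Eaf2, Prdm1 and Xbp1 lie above 2-fold and Zfp318 below it in all the genotypes.

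Upstream of Ighm, the 4 JH genes, whose exons are joined to the constant genes in mature transcripts, did not move together in the genotypes, and 0 of 4 were called by edgeR, at an unadjusted p under 0.05 or by DESeq2. Ighj4 had a log2 ratio of LPS to rest of 1.07 in wt, 1.52 in Eμ-deficient and -2.03 in 3′RR-deficient mice, where it went from 6.42 to 1.57 CPM. Ighj3 had ratios of 0.92, 1.68 and -0.96. In 3′RR-deficient mice Ighm itself had a ratio of 0.86, so that these short genes and Ighm had opposite signs there. The summed counts of 183 Ighv names per count of Ighm were 0.275 at rest and 0.397 after LPS in wt, 0.428 and 0.409 in Eμ-deficient, and 0.256 and 0.204 in 3′RR-deficient libraries.

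Genes outside the locus with the most similar pattern were ranked by the root mean square difference of centred log2 CPM over the 6 libraries. For Ighm these were Tmtc2 (0.24), Arntl2 (0.29) and Lmbr1 (0.33), and for Ighd they were Rnf125 (0.21), Gp5 (0.22) and Bambi (0.25). The patterns nearest to Ighg3 were less alike, with Rpl34-ps1 (0.65), Rps15a-ps6 (1.30) and Gm10154 (1.52). Rpl34-ps1 and Rps15a-ps6 are processed pseudogenes, which can exchange reads with near-identical copies. Igha was nearest to Gprc5b (0.63), Cd33 (0.74) and Siglech (0.92), of which Cd33 and Siglech are known from myeloid and plasmacytoid dendritic cells.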

How the data were processed

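RNA of CD43-depleted splenic B-cells was sequenced in 6 libraries, 1 per genotype (wt, Eμ-deficient, 3′RR-deficient) and state (resting, LPS), each from 2 pooled mice per the labels. The methods give 4 mice and 2 pools per genotype, so that whether the 2 libraries of a genotype share mice is not known. The deposited values are raw counts per gene name. The authors depleted ribosomal RNA, made stranded total RNA libraries, mapped paired reads of 150 nt to mm10 with STAR 2.4.0a and counted fragments, multi-mapping ones included, on strand option 1 with featureCounts (Subread 1.4.6-p1).
From these counts, 92 spike-in RNAs (4.75% to 7.10% of counts) were set aside. Library sizes were scaled by TMM (edgeR 4.0.16, R 4.3.3). The 14600 genes reaching 10 counts in 2 or more libraries were tested in edgeR with a quasi-likelihood F test for state beside genotype, at an adjusted p of 0.05 (Benjamini-Hochberg). Within a genotype, the log2 ratio of CPM was given with a conditional binomial interval (scipy 1.17.1). Libraries with 3 counts or fewer were set to 3 counts for calls. A 0 was taken to allow up to 3 counts. Intervals and limits hold counting error alone, and reads copied by PCR are no independent molecules. Exon lengths, positions and sequences come from GENCODE M21 on GRCm38, which held 44131 of the names.
The members and lists were chosen with earlier results of these data known. The text names the members, the listed genes and, for Ighm, Ighd, Ighg3 and Igha, the 3 genes with the nearest pattern (prior count 2). Alternatives were other scalings, filters, fold thresholds and lengths, removal of the trend on GC content, DESeq2 1.42.0, the current quasi-likelihood form and fits without each genotype. Coding length, the current form, and library sizes from coding genes were added after the data were seen. The model was tested on data simulated with a spread common to all genes and no differences between genotypes. That test does not cover genes whose LPS ratios differ more between genotypes, such as Ighg1. Enhancers, I and S regions and antisense RNA were not analysed here. Some genes of the regulator and follicular lists are not reported here and were left out of their counts and sums.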

Additional observations from a re-analysis of the deposited data

Results flagged for a closer look

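Ighg1 differed in direction between genotypes. Its log2 ratio of LPS to resting CPM was -1.43 in wt and 2.13 in Eμ-deficient B-cells, a difference of 3.56 (95% counting interval 3.11 to 4.01). It was singled out because the libraries of one genotype moved one way and those of the other the opposite way. The difference was not tested, since there is 1 library per genotype and state. At a threshold of 4-fold the wt ratio was no longer called. Leaving out either genotype moved the fitted common effect of Ighg1 to opposite signs.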

How the results depend on the processing

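The labels give no replicate numbers, and the additive model sets the resting beside the LPS library of each genotype; without that genotype block the members called lower were Ighd and Igha, without Ighg2c. The members called within a genotype were the same under every scaling, with the GC trend removed and with the other filter. With a threshold of 4-fold, Ighg1 lost its lower call in wt, where 3 members stayed lower (Ighd, Ighg2c, Igha), and Ighd lost its own in Eμ-deficient mice, where 2 stayed lower (Ighe, Igha) and 1 higher (Ighg1). In 3′RR-deficient mice 1 stayed lower (Igha), and the genes called fell to 1087 higher and 1550 lower in wt, 685 and 1195 in Eμ-deficient, and 814 and 977 in 3′RR-deficient mice. Scaling by spike-ins gave 1292 genes higher and 6583 lower in wt, and 1454 higher in the additive model, where the median log2 fold change of all genes was -0.28 with spike-ins, -0.16 with the total count and -0.07 with TMM. In that model, members called higher numbered 2 without a count filter (Ighg3, Ighg2b), 1 without 3′RR-deficient mice (Ighg3) and 3 with DESeq2 (Ighm, Ighg3, Ighg2b), and the cause was not tested. The fit without wt called Ighg3, Ighg1 and Ighg2b, but for these genes it rests on the Eμ-deficient pair of libraries alone. Without Eμ-deficient libraries 1877 genes were called higher, and Ighg1 reversed to -1.16. The share of the 6 downstream genes, at rest and after LPS, was 7.14% and 3.10% in wt and 2.49% and 2.30% in Eμ-deficient libraries as counts, and 0.433% in resting 3′RR-deficient ones. It was 5.92%, 2.25%, 1.75% and 1.61% in the wt and Eμ-deficient libraries with the longest transcript, and 7.93%, 3.74%, 2.99% and 2.82% with the coding length, which gave 0.472% in resting 3′RR-deficient ones. Without Ighm in the sum it was 29.4% and 47.1% in wt, 55.7% and 80.9% in Eμ-deficient and 1.57% and 0.966% in 3′RR-deficient libraries, so that its direction turned in wt and Eμ-deficient mice. Of the values of single genes, 170 kept their call or stayed within counting error, 21 moved by more than that, 9 gained a call, 3 lost one and 1 fitted effect reversed. Those that moved include changes of sign in wt. With spike-in scaling the wt log2 ratio turned to -0.28 for Ighm, -0.33 for Ighg3 and -0.75 for Ighg2b. The log2 ratios of LPS to rest fell with transcript GC content in wt (Spearman rho -0.26 over 13993 genes, a description across genes), against 0.03 in Eμ-deficient and 0.14 in 3′RR-deficient mice. Depth limits Ighe in every library and the γ genes in 3′RR-deficient ones.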
